A study of Mus musculus with 8 samples.

Results

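The miR-181 family and miR-150 were examined in small RNA libraries of Kupffer cells, the macrophages that reside in liver sinusoids. Entries of the deposited table were taken when their name began with mmu-miR-181a, mmu-miR-181b, mmu-miR-181c, mmu-miR-181d or mmu-miR-150, whatever the arm or suffix (the mouse prefix is left out hereafter). This gave 11 entries of 1234, of which 9 belonged to the miR-181 family and 2 to miR-150. The cells had been sorted by flow cytometry from livers of male mice, aged 8 weeks when put on a diet high in fat that lasted 8 weeks. The control group consisted of 4 wild-type littermates (WT, animals 35, 37, 80 and 82) and the other group of 4 mice lacking Trem2 (Trem2 KO, animals 40, 46, 88 and 90), a lipid-sensing receptor of macrophages. No mice on another diet were among the libraries, and the labels do not name the markers of the sort. Messenger RNA is not measured in such libraries, so loss of Trem2 itself was not checked.

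MicroRNAs are short RNAs that guide Argonaute proteins to messenger RNAs, mainly through the seed, bases 2 to 8 from the 5′ end. The miR-181 family is known for its role in T cell development, where miR-181a tunes the sensitivity of the T cell receptor, and it is also expressed in B cell precursors and in myeloid cells. Mature lymphocytes carry high levels of miR-150, which represses the transcription factor Myb and acts in B cell development. Each miRNA precursor is a hairpin with a 5p and a 3p arm, and usually one arm accumulates while the other is degraded.

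The 5p arms of the family share their seed and differ in a few bases in the middle and near the 3′ end. They are shown because counts of such close relatives depend on single bases. Mature sequences are from RefSeq (GRCm38.p6) with the seed in capitals.
miR-181a-5p: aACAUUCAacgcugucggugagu
miR-181b-5p: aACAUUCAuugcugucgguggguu
miR-181c-5p: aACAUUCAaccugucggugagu
miR-181d-5p: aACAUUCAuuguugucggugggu
Of the 1679 mature mouse miRNAs in the RefSeq table, the seed ACAUUCA was carried by 4, which were these. Counted from the 5′ end and written with T for U, miR-181b-5p differed from miR-181a-5p by A9T, C10T and A21G, and was 1 base longer at its 3′ end. From miR-181b-5p, miR-181d-5p differed by C12T and by lacking that last base. The G at position 11 of miR-181a-5p was absent from miR-181c-5p. Among the deposited entries, miR-181a-5p, miR-181c-5p and miR-181d-5p were identical to RefSeq and miR-181b-5p was 1 base shorter at its 3′ end. Some counts of miR-181a-5p, miR-181b-5p and miR-181d-5p were not whole, so the authors' counting had divided reads among entries, and the split between these relatives is uncertain.

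The 3p arms differ more from each other, and some tell loci apart. They are shown for that reason, again with the seed in capitals.
miR-181a-1-3p: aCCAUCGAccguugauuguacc
miR-181a-2-3p: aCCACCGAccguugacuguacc
miR-181b-1-3p: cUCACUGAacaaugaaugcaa
miR-181c-3p: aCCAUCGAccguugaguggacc
miR-181d-3p: cCCACCGGgggaugaauguca
miR-150-3p: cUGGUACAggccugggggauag
The arms miR-181a-1-3p and miR-181c-3p share a seed. No entry analysed here carried the name miR-181b-2-3p.

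In the annotation (GENCODE M21, GRCm38), Mir181a-1 (chr1:137966455-137966541, plus strand) and Mir181b-1 (chr1:137966639-137966718, plus strand) lay 97 bases apart, both overlapping an exon of the long noncoding RNA A430106G13Rik and an intron of Gm4258, with an intron of Gm26936 on the other strand. Mir181a-2 (chr2:38852735-38852810, plus strand) and Mir181b-2 (chr2:38853830-38853918, plus strand) lay 1019 bases apart, opposite to an intron of Nr6a1 and, for Mir181b-2, an exon of Gm44144. On the minus strand of chromosome 8, Mir181d (chr8:84178716-84178787) and Mir181c (chr8:84178873-84178961) lay 85 bases apart in an intron of Nanos3. Mir150 (chr7:45121757-45121821, plus strand) overlapped no other annotated gene. Both miR-181a loci give the same 5p arm and different 3p arms, as their RefSeq hairpins show with the mature arms in capitals.
Mir181a-1: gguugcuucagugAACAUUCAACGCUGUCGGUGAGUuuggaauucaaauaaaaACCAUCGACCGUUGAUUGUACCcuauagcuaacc
Mir181a-2: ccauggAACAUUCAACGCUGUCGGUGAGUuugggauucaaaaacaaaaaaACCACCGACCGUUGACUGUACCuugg

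Library totals ranged from 2129942 to 9443992 counts. Levels are given as CPM, counts per 1000000 of the library total after TMM scaling. Low values in the deposited table need care, because it held 401 values of exactly 5, 258 of exactly 6 and 124 whole values between 0 and 5. Among the miR-181 and miR-150 entries no value lay between 0 and 5, so an entry listed at 0 may have had a few reads. Whether a cutoff was used is not stated. The animal numbers fall into a low range (35 to 46) and a high range (80 to 90), each with 2 wild-type and 2 knockout mice. The labels do not say what these ranges are, but the libraries differ between them across many miRNAs, so levels are given library by library. Library totals were 2129942 to 3809016 counts in the low range and 2607271 to 9443992 in the high range. Of the 11 entries, 8 passed a filter on low counts and were tested. The other 3 were miR-181a-2-3p, miR-181d-3p and miR-150-3p.

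The family was dominated by miR-181a-5p, the form best known from T cell development. Its level was 1714, 1676, 3255 and 2106 CPM in wild-type libraries 35, 37, 80 and 82, and 1464, 1969, 2045 and 2543 CPM in knockout libraries 40, 46, 88 and 90. The genotypes overlapped, while the 4 libraries of the high range all lay above the 4 of the low range. In abundance it stood at place 59 of the 1234 entries, and it held 85.6% to 89.2% of the miR-181 counts in each library. All miR-181 entries together took 0.149% of the counts of knockout library 40 (Wilson 95% interval 0.145 to 0.153) and 0.318% of those of wild-type library 80 (0.314 to 0.321), the lowest and the highest share.

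The next entries in order of level were miR-150-5p at a mean of 200.1 CPM over the 8 libraries, miR-181b-5p at 155 CPM, miR-181a-1-3p at 76.4 CPM, miR-181c-5p at 31.5 CPM and miR-181d-5p at 28.5 CPM. Within libraries, miR-181a-5p exceeded miR-150-5p in 8 of 8, miR-181b-5p exceeded miR-181a-1-3p in 8 of 8, and miR-181a-1-3p exceeded miR-181c-5p in 8 of 8. Neighbours that could not be ordered were miR-150-5p and miR-181b-5p, where miR-150-5p was higher in 5 libraries and lower in 3, and miR-181c-5p and miR-181d-5p, where miR-181c-5p was higher in 6 and lower in 2. The remaining entries had means of 5.25 CPM (miR-181c-3p), 3.92 CPM (miR-181b-1-3p), 2.56 CPM (miR-181a-2-3p), 0.837 CPM (miR-150-3p) and 0.282 CPM (miR-181d-3p). Levels of different miRNAs also carry the ligation and amplification bias of each sequence, so the order is that of the counts.

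**Figure D1:**
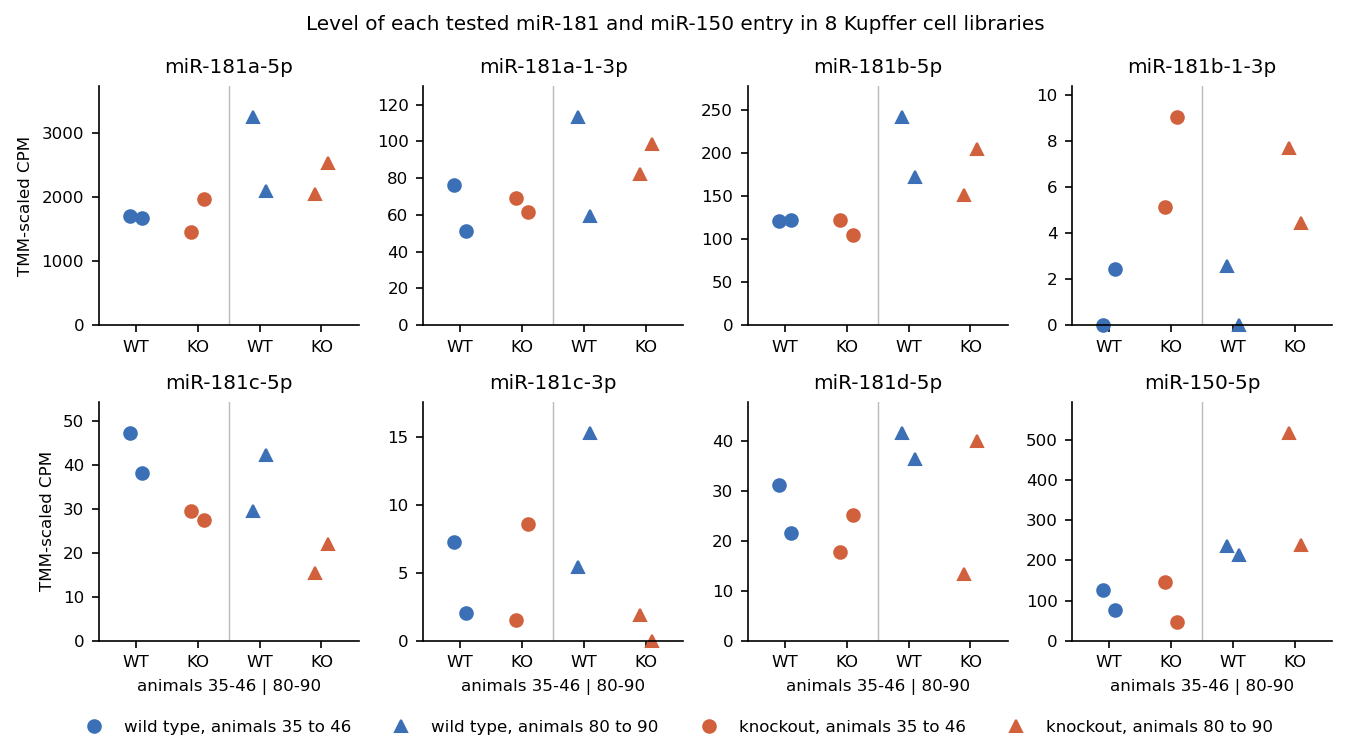
TMM-scaled CPM (linear axes from 0) of the 8 tested entries, with 1 point per library, coloured by genotype and shaped by animal number range. The knockout points of miR-181c-5p all lie below the wild-type points and those of miR-181b-1-3p all lie above them, while miR-181a-5p, miR-181b-5p and miR-150-5p are higher in every library of animals 80 to 90.

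The first comparison asked whether Kupffer cells without Trem2 differed from wild-type cells in these miRNAs. None rose or fell past the threshold: in edgeR's quasi-likelihood test with Benjamini-Hochberg adjustment over 627 entries, 0 of 8 tested entries passed an adjusted p of 0.05, where 0% of all entries did. At an unadjusted p under 0.05 the number was also 0 of 8 in edgeR (0.319% of all entries) and 2 of 8 in DESeq2, which had 13 such entries and called 0 of 627. The 2 were miR-181c-5p (DESeq2 log2 difference -0.70 ± 0.33, SE) and miR-181b-1-3p (2.4 ± 1.1). The latter passed the low-count filter only because the knockout was high, so nothing is drawn from its part in the count. With the number range as a block, edgeR called 0 of 627 as well, and 1 of 8 tested entries had an unadjusted p under 0.05 (2.71% of all entries). The common dispersion was 0.276 with the block and 0.582 without it. Each library came from a separately numbered mouse, and 4 against 4 mice limit what can be seen.

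The entry that separated the genotypes in the downward direction was miR-181c-5p, which like miR-181d is encoded in Nanos3. It stood at 47.4, 38.3, 29.6 and 42.4 CPM in wild-type libraries 35, 37, 80 and 82, and at 29.5, 27.5, 15.4 and 22.1 CPM in knockout libraries 40, 46, 88 and 90. The groups did not overlap, although knockout library 40 and wild-type library 80 almost met. Wild type had a mean of 39.4 ± 7.50 CPM, the knockout one of 23.6 ± 6.31 CPM (SD, n = 4 per genotype), and the ratio was 0.60. On the deposited normalized scale the groups did not overlap either, with 110 to 172 in wild type and 60.6 to 106 in knockout. The counts behind these values were 94 to 241 reads in wild type and 48 to 139 in knockout.

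The edgeR log2 difference of miR-181c-5p, knockout minus wild type, was -0.74 ± 0.41 (SE; 95% interval -1.64 to 0.17; adjusted p 0.997). It was -0.76 ± 0.32 with the range block (unadjusted p 0.0401, adjusted p 0.946). Of all tested entries 3 (0.478%) separated the genotypes with the knockout lower in CPM, and 3 (0.478%) did so on the deposited scale. Within both number ranges taken separately 21 entries (3.35%) had the knockout lower without overlap, miR-181c-5p among them, and 8 (1.28%) had it higher, miR-181b-1-3p among them. Within animals 35 to 46 the log2 difference was -0.53 ± 0.34, and within animals 80 to 90 it was -0.92 ± 0.56 (SE). Leaving out each library in turn gave log2 differences of miR-181c-5p from -0.87 to -0.57, with -0.74 without wild-type library 37, the highest for hepatocyte miRNAs.

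Its partner arm miR-181c-3p had few reads and did not separate the genotypes. It was 7.26, 2.04, 5.41 and 15.3 CPM in wild-type libraries 35, 37, 80 and 82, and 1.505, 8.58 and 1.93 CPM in knockout libraries 40, 46 and 88, while knockout library 90 was listed at 0. The log2 difference was -1.36 ± 1.26 (SE). It was -2.75 without knockout library 46, -0.75 without wild-type library 82, 0.14 within animals 35 to 46 and -3.46 within animals 80 to 90. The deposited entry of miR-181c-3p carries C22T against RefSeq, and whether that entry holds all reads of the arm is not stated.

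The neighbouring miR-181d-5p, from the same intron, overlapped between genotypes. Wild-type libraries 35, 37, 80 and 82 held 31.3, 21.6, 41.7 and 36.4 CPM, and knockout libraries 40, 46, 88 and 90 held 17.8, 25.3, 13.5 and 40.1 CPM. Its log2 difference was -0.44 ± 0.48 (SE), and it went from -0.81 without knockout library 90 to -0.23 without knockout library 88. The other arm, miR-181d-3p, was listed with 5 reads in knockout library 46 and at 0 in the other 7 libraries.

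In the upward direction the entry that separated the genotypes was miR-181b-1-3p, the arm opposite to miR-181b-5p in the hairpin of Mir181b-1 on chromosome 1. The same miR-181b-5p is also encoded on chromosome 2, by Mir181b-2, so its counts pool both loci. Wild-type libraries 37 and 80 held 6 and 21 reads and libraries 35 and 82 were listed at 0, while knockout libraries 40, 46, 88 and 90 held 17, 20, 24 and 28 reads. The low-count filter asked for 3.01 CPM of the unscaled library total in 4 libraries, which the 4 knockout libraries reached and 0 wild-type libraries did. The entry was thus tested only because the knockout was high, so its values are a description and nothing is drawn from its separation. The TMM-scaled levels were 2.44 and 2.58 CPM in wild-type libraries 37 and 80 and 5.12, 9.03, 7.71 and 4.45 CPM in the knockout libraries. The groups did not overlap. Setting both zeros to 4 reads could not change that, since it left them below the wild-type maximum of 2.58 CPM. It lowered the ratio of means from 5.23 to 3.56. The edgeR log2 difference was 2.34 ± 1.27 (SE; 95% interval -0.49 to 5.17), and 1.80 ± 0.78 with the zeros at 4 reads. Of all tested entries 2 (0.319%) separated the genotypes with the knockout higher in CPM, and 3 (0.478%) on the deposited scale, under the same filter.

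The deposited entry of miR-181b-1-3p is not the RefSeq sequence but differs at its last base (A21T), which is in capitals in both.
RefSeq: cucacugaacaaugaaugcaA
deposited entry: ctcactgaacaatgaatgcaT
The accumulating arm, whose counts pool both loci, overlapped between genotypes. For miR-181b-5p the wild-type libraries 35, 37, 80 and 82 held 121, 121.5, 241 and 171 CPM and the knockout libraries 40, 46, 88 and 90 held 121, 105, 151 and 204 CPM, with a log2 difference of -0.17 ± 0.38 (SE).

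The remaining entries had log2 differences within 1 SE of 0. The log2 difference of miR-181a-5p was -0.13 ± 0.32 (95% interval -0.84 to 0.59), and that of miR-181a-1-3p was 0.05 ± 0.39 (-0.81 to 0.91). The log2 difference of miR-150-5p was 0.54 ± 0.66 (-0.94 to 2.01) and rested on 1 library: without knockout library 88 it was -0.18. Genotype differences were not shown to depend on the number range, since the interaction was called for 0 of 8 tested entries and 0% of all entries in edgeR (0 of 8 and 4.78% at an unadjusted p under 0.05).

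**Figure D2:**
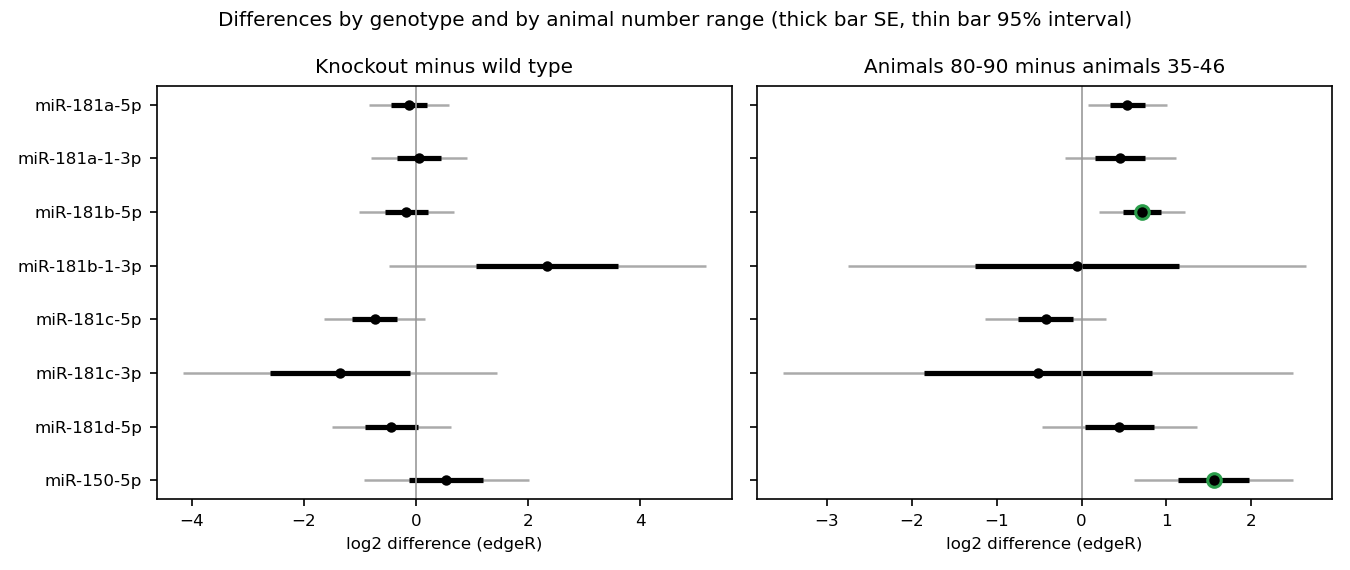
The edgeR log2 differences (x axis) of the 8 tested entries, knockout minus wild type at left and animals 80 to 90 minus animals 35 to 46 at right, with thick bars for the SE and thin bars for the 95% interval. Green rings mark an adjusted p under 0.05, which miR-150-5p and miR-181b-5p reached between the number ranges and no entry reached between genotypes.

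Balance within the family was compared next, as ratios inside a library that need no scaling between libraries. The miR-181a-5p to miR-181b-5p ratio was 14.2, 13.8, 13.5 and 12.3 in wild-type libraries 35, 37, 80 and 82, and 12.1, 18.8, 13.5 and 12.5 in knockout libraries 40, 46, 88 and 90. Apart from knockout library 46, at 18.8, the libraries lay between 12.1 and 14.2. The 5p arms of the family exceeded the 3p arms 21.7 to 33.3 times in wild type and 21.6 to 27.2 times in knockout. Entries from chromosome 8 (miR-181c and miR-181d) relative to those of miR-181a and miR-181b had a ratio of 0.0449, 0.0334, 0.0212 and 0.0402 in the wild-type libraries and of 0.0294, 0.0297, 0.0134 and 0.0218 in the knockout libraries. The groups overlapped, with the lowest wild-type value in library 80 and the lowest of all in knockout library 88.

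None of these 3 ratios differed between genotypes beyond the spread of the libraries. The mean log2 differences, knockout minus wild type, were 0.06 for miR-181a-5p to miR-181b-5p, -0.21 for the 5p to the 3p arms and -0.58 for the entries from chromosome 8. The last went from -0.80 without wild-type library 80 to -0.33 without knockout library 88. The exact two-sided permutation p values of these 3 ratios were 0.886, 0.171 and 0.171, and 0.971, 0.514 and 0.514 after Benjamini-Hochberg adjustment over 6 sums and ratios. The summed miR-181 level had a log2 difference of -0.11 (exact permutation p 0.714, adjusted 0.971) and the summed miR-150 level one of 0.19 (exact permutation p 0.8286, adjusted 0.971).

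**Figure D3:**
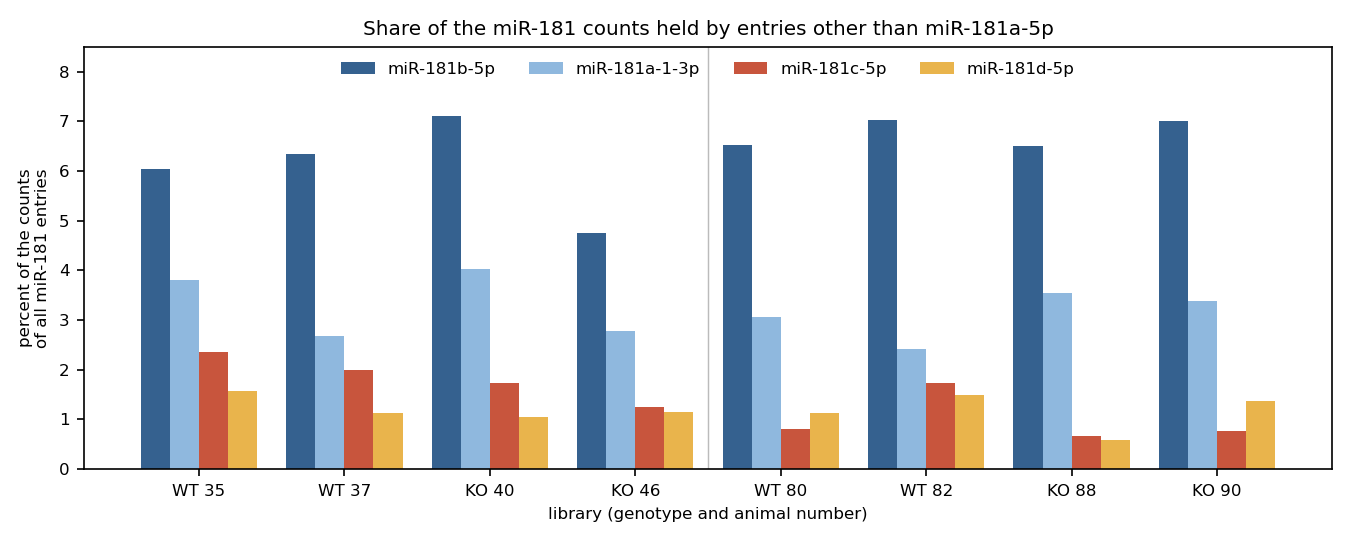
Percent of the counts of all miR-181 entries (y axis) held by 4 entries other than miR-181a-5p in each of the 8 libraries, with animals 35 to 46 left of the line. The share of miR-181b-5p lies between 4.75% and 7.11%, and that of miR-181c-5p between 0.663% and 2.37%.

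The 3p arms also tell which miR-181a locus they came from. Over all libraries 2773 reads carried the arm of Mir181a-1 and 81 the arm of Mir181a-2, so that 97.2% of these reads (Wilson 95% interval 96.5 to 97.7) carried the arm encoded on chromosome 1. For miR-181a-2-3p, libraries 35, 80 and 82 of wild type held 12, 15 and 29 reads and knockout library 88 held 25, while wild-type library 37 and knockout libraries 40, 46 and 90 were listed at 0. The share of the chromosome 1 arm was thus lowest in wild-type library 82 (90.8%, 87.1 to 93.5) and knockout library 88 (91.1%, 87.2 to 93.9). For miR-181a-1-3p, wild-type libraries 35, 37, 80 and 82 held 76.4, 51.3, 113 and 59.1 CPM and knockout libraries 40, 46, 88 and 90 held 68.9, 61.4, 82.2 and 98.8 CPM, and the groups overlapped. The shares describe the 3p arms, which may be degraded at different rates, and the intervals cover counting error only.

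Among the 6 entries detected in every library, the lymphocyte miRNA miR-150-5p varied most, with a coefficient of variation of 73.3% where the others had 27.2% to 37%. Wild-type libraries 35, 37, 80 and 82 held 126, 77.7, 236 and 214 CPM, and knockout libraries 40, 46, 88 and 90 held 146, 46.5, 517 and 238 CPM. The lowest and the highest library were both knockouts and differed 11.1-fold, against 2.22-fold for miR-181a-5p. In counts this was 103 reads in knockout library 46 and 1610 in knockout library 88. The other arm, miR-150-3p, was listed at 0 in wild-type libraries 35 and 37 and knockout libraries 46 and 90, and held 5 to 10 reads in the other 4. With 0.5 counts added to both arms, the log2 ratio of miR-150-5p to miR-150-3p was 8.37 ± 0.85 in wild type and 8.24 ± 2.26 in knockout (SD, n = 4 each; exact permutation p 0.971, also after adjustment).

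A second comparison set animals 80 to 90 against animals 35 to 46 with genotype as a term. This split was taken up because it was known to separate these libraries. Library totals overlapped between the ranges, at 2129942 to 3809016 counts in the low range and 2607271 to 9443992 in the high range. The largest totals were in the high range, and the part of library totals in the differences was not tested. Between the ranges 2 of 8 tested entries passed, where 32.4% of all tested entries did. Both rose and 0 fell, where 16.6% of all tested entries rose and 15.8% fell. For miR-150-5p the mean was 99.1 ± 45.3 CPM in the low range and 301 ± 144 CPM in the high range (SD, n = 4 per range). Its log2 difference, high minus low, was 1.55 ± 0.42 (SE; edgeR adjusted p 0.0187). For miR-181b-5p it was 117 ± 8.19 CPM and 192 ± 39.3 CPM, a log2 difference of 0.71 ± 0.23 (edgeR adjusted p 0.0372). The level of miR-181a-5p was 1706 ± 207 CPM and 2487 ± 558 CPM, a log2 difference of 0.54 ± 0.21 that did not pass (edgeR adjusted p 0.0712). It passed with DESeq2 size factors or library totals in edgeR, with limma-trend and with DESeq2, at adjusted p values from 0.00819 to 0.0484. In that order these settings called 209, 217, 254 and 304 of all 627 tested entries, and 3 of the 8 miR-181 and miR-150 entries each.

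These calls depended on single libraries. The call of miR-150-5p was lost without wild-type library 37 (edgeR adjusted p 0.0549) and without knockout library 88 (0.0545), with log2 differences of 1.55 and 1.21. The call of miR-181b-5p was lost on leaving out wild-type library 35, 37 or 80 or knockout library 40, 46 or 90, with edgeR adjusted p values from 0.0631 to 0.117, and its log2 difference stayed between 0.60 and 0.84 over all libraries left out. The ranges did not overlap for miR-150-5p, miR-181a-5p and miR-181b-5p, which is 3 of 8 tested entries where 21.4% of all entries were separated upward. Downward, 0 of 8 were separated where 19.8% of all entries were. The entries miR-181c-5p, miR-181d-5p, miR-181a-1-3p, miR-181c-3p and miR-181b-1-3p had range log2 differences of -0.42 ± 0.32, 0.44 ± 0.41, 0.45 ± 0.29, -0.51 ± 1.34 and -0.05 ± 1.203 (SE). The direction of miR-181b-1-3p turned under other scalings, and none of these 5 passed.

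Summed markers of several cell types a liver macrophage sort could hold differed between the ranges too, but most sums were carried by 1 abundant entry. Calls of single entries stand beside the 16.6% of all tested entries that rose and the 15.8% that fell. Without overlap between the ranges, 21.4% of all tested entries were separated upward and 19.8% downward. Of 5 lymphocyte miRNAs beside the miR-181 and miR-150 entries, 4 had an entry and all were detected in every library. Their summed level was 7610 to 11370 CPM in the low range and 18870 to 37350 CPM in the high range, most of it miR-342-3p, which myeloid cells also express. Of the 4, miR-342-3p rose and 0 fell, and miR-363-3p had a log2 difference of -0.80 ± 0.50 (SE). Knockout library 88, the highest for miR-150-5p, had 18870 CPM, the lowest of its range. The 6 myeloid miRNAs (miR-223, miR-142a and miR-511, both arms) had an entry each and summed to 18210 to 22440 CPM in the low range and 28050 to 40620 CPM in the high range. Both arms of miR-142a and miR-223 also belong to the list of lymphocyte and blood cell development below, so this sum is not specific to myeloid cells. Of this list miR-142a-5p, at 19680 of 27480 CPM on average, miR-223-3p and miR-511-5p rose, while miR-511-3p fell by 0.63 on the log2 scale (edgeR adjusted p 0.0418) and miR-142a-3p had a log2 difference of -0.64 ± 0.24 (SE). In RNA of a whole sort, a different number of cells of a type and a different amount of RNA per cell cannot be told apart.

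The sums of the erythroid and stellate lists were lower in the high range, that of the epithelial list was higher, and those of the hepatocyte and endothelial lists overlapped. Calls in these lists stand beside the same shares of all tested entries, 16.6% that rose and 15.8% that fell. The erythroid miRNAs, 4 of 5 with an entry, summed to 5055 to 7381 CPM in the low range and 636 to 2513 CPM in the high range, where miR-451a and miR-486a-5p fell and 0 rose. The stellate or mesenchymal miRNAs, 4 of 5 with an entry, summed to 5369 to 8045 CPM in the low range and 3079 to 3587 CPM in the high range. In it miR-143-3p and miR-145a-5p fell and miR-214-3p rose by 2.10 on the log2 scale (edgeR adjusted p 0.00503). The hepatocyte miRNAs, 5 of 5 with an entry, summed to 12220 to 139300 CPM in the low range and 9132 to 14200 CPM in the high range, with the highest value in wild-type library 37. The endothelial miRNAs (2 of 2) summed to 12250 to 19220 and 13560 to 18950 CPM, and the epithelial miRNAs (5 of 5) to 235 to 359 and 405 to 726 CPM. Of the epithelial entries 2 were higher and 3 lower, and only miR-200c-3p passed (1.28 ± 0.29, SE; edgeR adjusted p 0.0092). Every entry of these lists was above 0 in each library. By genotype the lymphocyte list summed to 7610 to 37350 CPM for the wild type and 7917 to 24310 CPM for the knockout, and the myeloid list to 18210 to 34150 and 22200 to 40620 CPM. No entry of the 7 lists was called between genotypes. All 6 hepatocyte entries (median log2 difference -0.83), all 5 epithelial (-0.17), all 4 lymphocyte (-0.46) and both endothelial entries (-0.30) were lower in knockout, where the median of all entries was -0.04. Of the other lists, 4 of 6 myeloid (median 0.09), 3 of 4 erythroid (0.48) and 2 of 4 stellate entries (-0.09) were higher. The hepatocyte sums overlapped between genotypes. Wild-type library 37 held 139300 CPM, while libraries 35, 80 and 82 held 12220, 14200 and 9832 CPM. Knockout libraries 40, 46, 88 and 90 held 41030, 15170, 9132 and 11770 CPM. Apart from library 37, every wild-type sum thus lay below those of knockout libraries 40 and 46. Whether the 6 hepatocyte entries stay lower in knockout without library 37 was not tested. The part of these cell types in the levels of miR-150 and miR-181 was not tested.

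**Figure D4:**
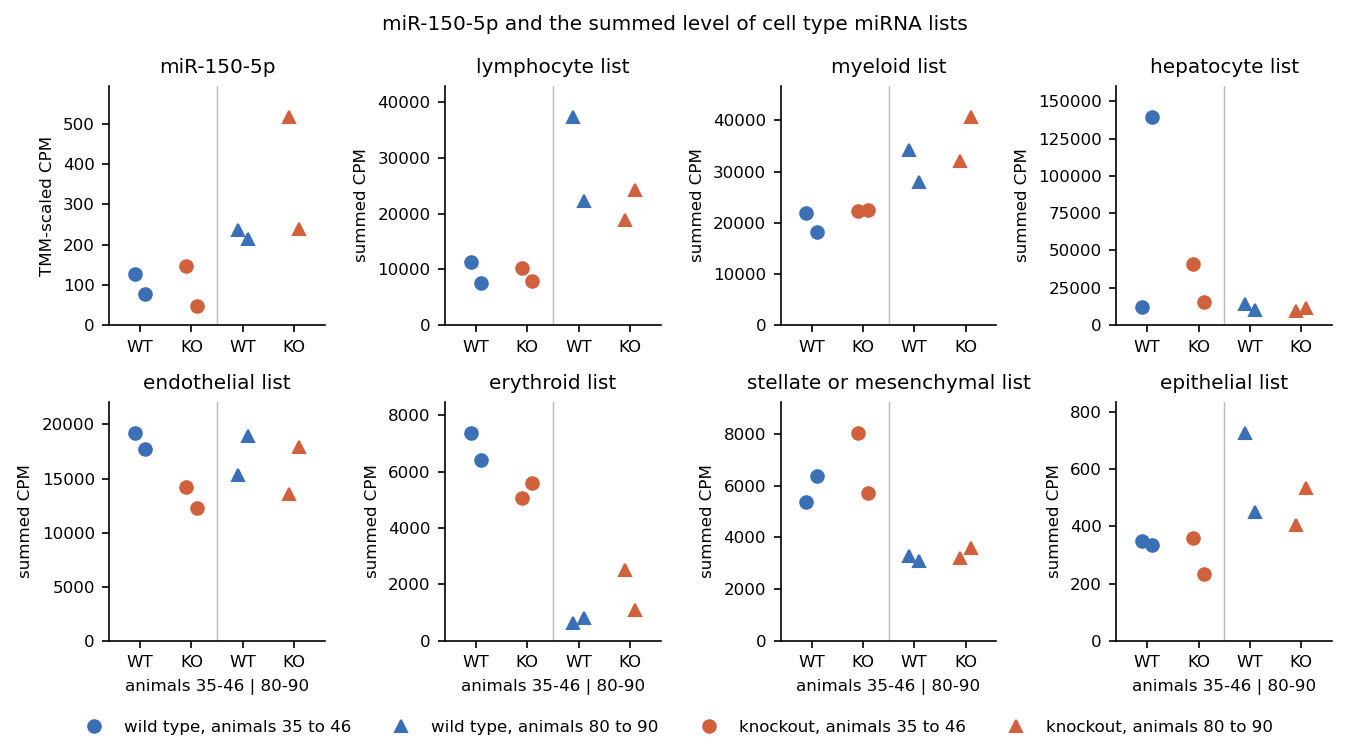
TMM-scaled CPM of miR-150-5p and summed CPM of 7 cell type lists (linear axes from 0), 1 point per library, with animals 35 to 46 left of the line. The sums of the lymphocyte, myeloid and epithelial lists are higher in every library of animals 80 to 90 and those of the erythroid and stellate lists are lower, though single entries of the lists differ in direction, while miR-150-5p is highest in a knockout library whose lymphocyte list is the lowest of its range.

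Other miRNAs known from lymphocyte and blood cell development gave 19 tested entries (all arms of miR-155, miR-146a, miR-142a, miR-342, miR-223 and members of the miR-17-92 cluster). Between genotypes 0 of 19 passed, with 4 higher, 15 lower and a median log2 difference of -0.22, where the median of all 627 entries was -0.04. Among them miR-155-5p, which is induced on activation of lymphocytes and macrophages, had a log2 difference of -0.55 ± 0.52, and miR-342-3p one of -0.36 ± 0.54 (SE). Between the number ranges 4 of 19 rose and 3 fell, shares near those of all entries (16.6% and 15.8%), with a median of 0.54 where that of all entries was -0.04. The entries that rose were miR-342-3p (1.47 ± 0.25, edgeR adjusted p 0.00216), the myeloid miR-223-3p (1.01 ± 0.22, 0.00636), miR-92a-3p (0.99 ± 0.19, 0.00362) and miR-142a-5p (0.79 ± 0.18, 0.00945). Those that fell were miR-19b-3p (-1.77 ± 0.37, edgeR adjusted p 0.00611), miR-146a-3p (-1.38 ± 0.28, 0.00504) and miR-19a-3p (-1.36 ± 0.38, 0.0218).

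The profiles most like those of the main entries were looked for among 168 mouse miRNAs with a mean of at least 100 CPM. Likeness was the root mean square difference between log2(CPM + 1) values over the 8 libraries, each miRNA centred on its own mean. Nearest to miR-181a-5p were miR-212-5p at 0.142, miR-338-5p at 0.148, miR-342-5p at 0.149, miR-148b-3p at 0.179 and miR-107-3p at 0.193, where the median of all 168 was 0.545. Nearest to miR-150-5p were let-7c-5p at 0.45, miR-195a-5p at 0.501, miR-26b-5p at 0.51, miR-132-3p at 0.524 and let-7e-5p at 0.531, where the median was 1.06. All 10 of these had a higher mean in the high range than in the low range. This follows from the choice, since miR-181a-5p and miR-150-5p were themselves higher in that range, and nothing is drawn from it. No profile came as near to miR-150-5p as the nearest did to miR-181a-5p, but this distance grows with the spread of the miRNA itself. The SD of log2(CPM + 1) over the libraries was 1.07 for miR-150-5p and 0.365 for miR-181a-5p. The distances of these miRNAs are therefore not alike in scale. In knockout libraries 46 and 88, miR-150-5p lay further from its mean than its 5 neighbours did from theirs.

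**Figure D5:**
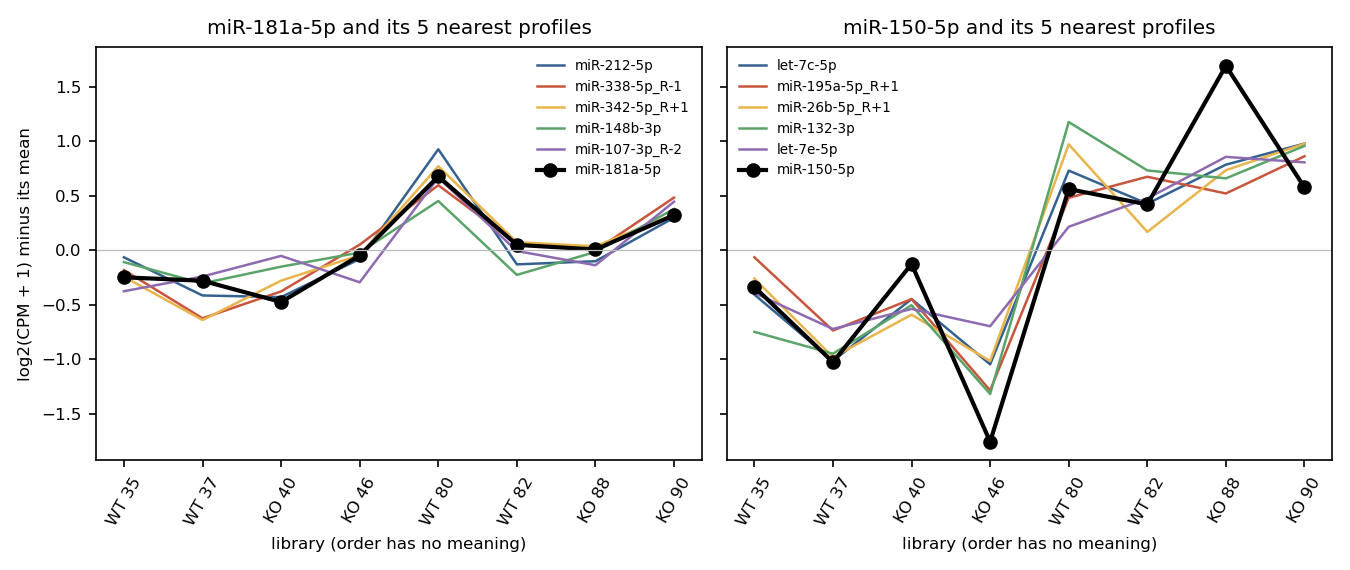
Log2(CPM + 1) minus its mean over the 8 libraries (y axis) for miR-181a-5p and miR-150-5p in black and for the 5 nearest miRNAs of each in colour, by library. The black line of miR-150-5p leaves its neighbours in knockout libraries 46 and 88.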

How the data were processed

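Small RNA was measured in sorted Kupffer cells from 4 wild-type and 4 Trem2 knockout mice, and groups were taken from the sample titles. Per the labels' protocols, libraries were made with an Illumina TruSeq kit for small RNA. For trimming, alignment, miRNA database and genome build, nothing was stated. Per the file headers and the values, the raw columns hold expected counts, which were rounded for count models, and the authors' normalized columns hold a signal equal to the raw value times 1 factor per library. The table was deposited as FPKM by name, but no length entered the values.

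Analysis used R 4.3.3. Entries passing filterByExpr (627) were scaled by TMM and tested with edgeR 4.0.16 (quasi-likelihood, Benjamini-Hochberg at 0.05). SEs come from the F statistic. Alternatives used DESeq2 1.42.0 and limma 3.58.1 (log2 of the deposited signal plus 1). Fits were tried on simulated data with dispersions below those of the genotype (0.582), number range (0.276) and interaction (0.271) fits. This check therefore does not cover the noise of those fits. For sums and ratios, exact two-sided permutation tests over libraries were used. The log2 ratio of miR-150-5p to miR-150-3p needed 0.5 counts added, because miR-150-3p was listed at 0 in 4 libraries. Wilson intervals (95%) cover counting error only, as reads carry no molecular identifiers here.

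The miRNAs, lists and the split by animal number were chosen with earlier results of these data known. All miR-181 and miR-150 entries were described. Nearest profiles were the 5 mouse miRNAs of at least 100 CPM with the smallest root mean square difference, 1 entry per sequence. Named members of the blood cell list are those that passed and 2 others chosen after their values were seen. Sequences are from RefSeq (GRCm38.p6) and the deposited table; 10 of the 11 names matched RefSeq.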

Additional observations from a re-analysis of the deposited data

Results flagged for a closer look

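Single libraries lay apart from the other 3 of their genotype in 2 of the 33 groups examined, where chance gives about 1 in 20 groups. On the log2(CPM + 1) scale, miR-181d-3p was 1.70 in knockout library 46 and 0 in the other knockout libraries. On the same scale, miR-181a-2-3p was 3.17 in knockout library 88 and 0 in the others. In both cases the other libraries were listed at 0 in a table that holds no value between 0 and 5 for these entries, so a 0 is a listed value, not a measured absence. Beside 3 values of 0 any value above 0 is flagged, so the rate of 1 in 20 does not apply to these 2 groups.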

How the results depend on the processing

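No paired analysis was possible because the animal numbers differ between the genotypes. Of the recomputed values, 365 kept their direction and their side of the threshold or stayed within 1.5 times, 29 changed sign, 9 lost and 4 gained a call and 2 counts moved by over 1.5 times, and the cause was not tested. No setting called a genotype difference for any entry. The number range calls (203) went from 129 to 222 on leaving out 1 library (lowest without wild-type library 37), and DESeq2 called 2 interactions against 0, none of them a miR-181 or miR-150 entry. Leaving out 1 library took the genotype log2 difference of miR-181a-5p from -0.27 to 0.12, of miR-181b-5p from -0.39 to 0.0624, of miR-181a-1-3p from -0.10 to 0.31 and of miR-150-5p from -0.18 to 0.86. It took that of the summed miR-181 level from -0.24 to 0.0808, of the summed miR-150 level from -0.33 to 0.80, of the ratio of miR-181a-5p to miR-181b-5p from -0.0829 to 0.13 and of miR-150-5p to miR-150-3p from -1.23 to 0.47. The range log2 difference of miR-181b-1-3p went from -1.08 to 0.74 and that of miR-181c-3p from -1.29 to 0.43. Within animals 35 to 46 the genotype log2 difference was 0.14 for miR-181c-3p, -0.0171 for miR-150-5p and 0.0740 for miR-181a-5p. The range log2 difference of miR-181b-1-3p was 0.0627 without a filter, 0.0738 with DESeq2 size factors, 0.0444 with library totals only and 0.0774 in DESeq2, and that of miR-181c-3p was 0.24 without a genotype term. Without a filter the range call of miR-181b-5p was lost (edgeR adjusted p 0.0818), and that of miR-181a-5p was gained with DESeq2 size factors, library totals only, DESeq2 and limma-trend. Those settings for miR-181a-5p also called more entries in all, 209 to 304 against 203. Library totals only moved the median range log2 difference of all entries from -0.04 to 0.15. Taking only the most abundant entry of each arm gave no other values, since each arm had 1 entry. Alternatives within each range, with zeros at 4 reads, with 1 count added and with entries of other species were chosen after seeing the data. With 0 to 28 reads of miR-181b-1-3p and 0 to 74 of miR-181c-3p in a library, counting error weighs on both.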

Other observations

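Entries named from other species hold further sequences of the same kind. An entry with a rabbit name (ocu-miR-150-5p) had 1291 reads, at 6.51 to 20.8 CPM in animals 35 to 46 and 44.7 to 68.7 CPM in animals 80 to 90. The ranges did not overlap, where 21.4% of all tested entries were separated in that direction. Between genotypes it was 6.51 to 48.4 CPM in wild type and 9.03 to 68.7 CPM in knockout. A pair of opossum-named entries, longer forms of miR-181a-5p, had identical values that summed to 197.5 reads each over the 8 libraries. They lay between 2.69 and 14.8 CPM in the wild-type libraries and between 0 and 4.51 CPM in the knockout libraries.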
